A study of Mus musculus with 6 samples.

Results

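Integrins are receptors made of an alpha and a beta chain that span the cell membrane and hold a cell to the matrix around it. The alpha chain largely sets which matrix protein is bound, so integrins are grouped as receptors for collagens, for laminins, for proteins with the short RGD motif such as fibronectin and vitronectin, and a further group with alpha4 and alpha9. Inside the cell, talins and kindlins bind the beta chain's tail and switch the receptor on, and a complex of ILK, PINCH and parvin proteins, with tensins, paxillin and the kinases FAK and Src, ties it to actin fibres in focal adhesions. Myofibroblasts, the contractile cells of healing wounds that carry smooth muscle actin, are known for large focal adhesions, through which they pull on the matrix.

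The genes described here are 36 mouse genes of this machinery, chosen by their Entrez gene identifiers. They comprise 19 integrin chains, 15 adaptors and kinases, and the discoidin domain collagen receptors Ddr1 and Ddr2. Of the 36, 35 had a row in the authors' gene table, and the remaining gene, Itgb8, was reached by the accession of its probe. A gene was tested when a probe of it was well above background, by the scanner software's mark, on all 3 arrays of at least 1 group. That held for 33 of the 36 genes, and for 16739 of the 23044 genes on both array designs.

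The mice bore a transgene in which GFP reports smooth muscle actin (SMA), and RNA of the sorted cells was read on 6 1-colour Agilent arrays. Cells of both groups lacked CD45, the marker of blood cells, and CD31, the marker of endothelium. The first group, skin SMA+, was made of dermal cells with low GFP, and the second, wound SMA+++, of cells with high GFP from wounds at day 7 after injury. Injury and reporter level thus changed together between the groups and cannot be told apart. The labels call the cells fibroblast-like and state neither the age of the mice nor whether the replicates came from separate animals, so the p-values cover only how far these samples differ from each other, and that spread may be technical. Array design 026655 carried replicates 1 and 2 of both groups. The last array of each group was on design 028005 and bears no number in its label, and it is called replicate 3 only as a name. The text deposited with the series names a human array among those used, whereas the organism label is mouse and the probes matched mouse genes.

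Between 64.4% and 72.6% of the spots on each array were well above background and no spot was saturated. Acta2, the gene whose promoter activity the reporter stands for, was 26.1-fold higher in the wound arrays (log2 difference 4.71 ± 0.16, SE, n = 3 arrays per group), and the cells were sorted on that reporter. Levels below are log2 signals relative to the 75th percentile of the same array, so 0 is the level that 75% of the array's probes lie under. Levels on design 028005 ran higher for most of the 36 genes than on design 026655, and wound was therefore compared with skin within each design. Each difference is wound minus skin on the log2 scale with its SE from limma over 3 arrays per group, and each adjusted p is limma's with Benjamini-Hochberg adjustment over all 16739 genes. In RNA from many cells, fewer cells of a type and less RNA per cell cannot be told apart.

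Of the 33 tested genes, 18 were higher in wound cells, 5 were lower and 10 did not pass an adjusted p of 0.05. That is 69.7% called, where 34.1% of all tested genes were called, 18.5% of them as higher and 15.6% as lower. A difference of at least 2-fold was called for 16 of the 33, 11 higher and 5 lower, and for 20.2% of all tested genes. The median difference of the 33 genes was 0.64 and that of all tested genes 0.04. Among the integrin chains, 10 of 17 tested were higher and 3 lower. Among the adaptors and kinases, 7 of 14 tested were higher and 2 lower. Among the 18 higher genes, Itgb6 and Parvb passed the filter on dim probes only through the wound arrays. All 23 called genes had the same sign in each of the 3 pairs of arrays. Each call rests on a fit to those pairs, so this agreement is largely built in and adds no separate support. The share of all called genes with such agreement is not given here. Of the 23 calls, 7 (Itga1, Itga4, Itga5, Itga7, Itga8, Itga10 and Itgb4) passed under all 17 other settings tried. The other 16 did not pass when the term for the array design was left out of the model. Itga1 has a second probe, given below, that did not follow the first, and no setting fitted that probe alone.

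**Figure D1:**
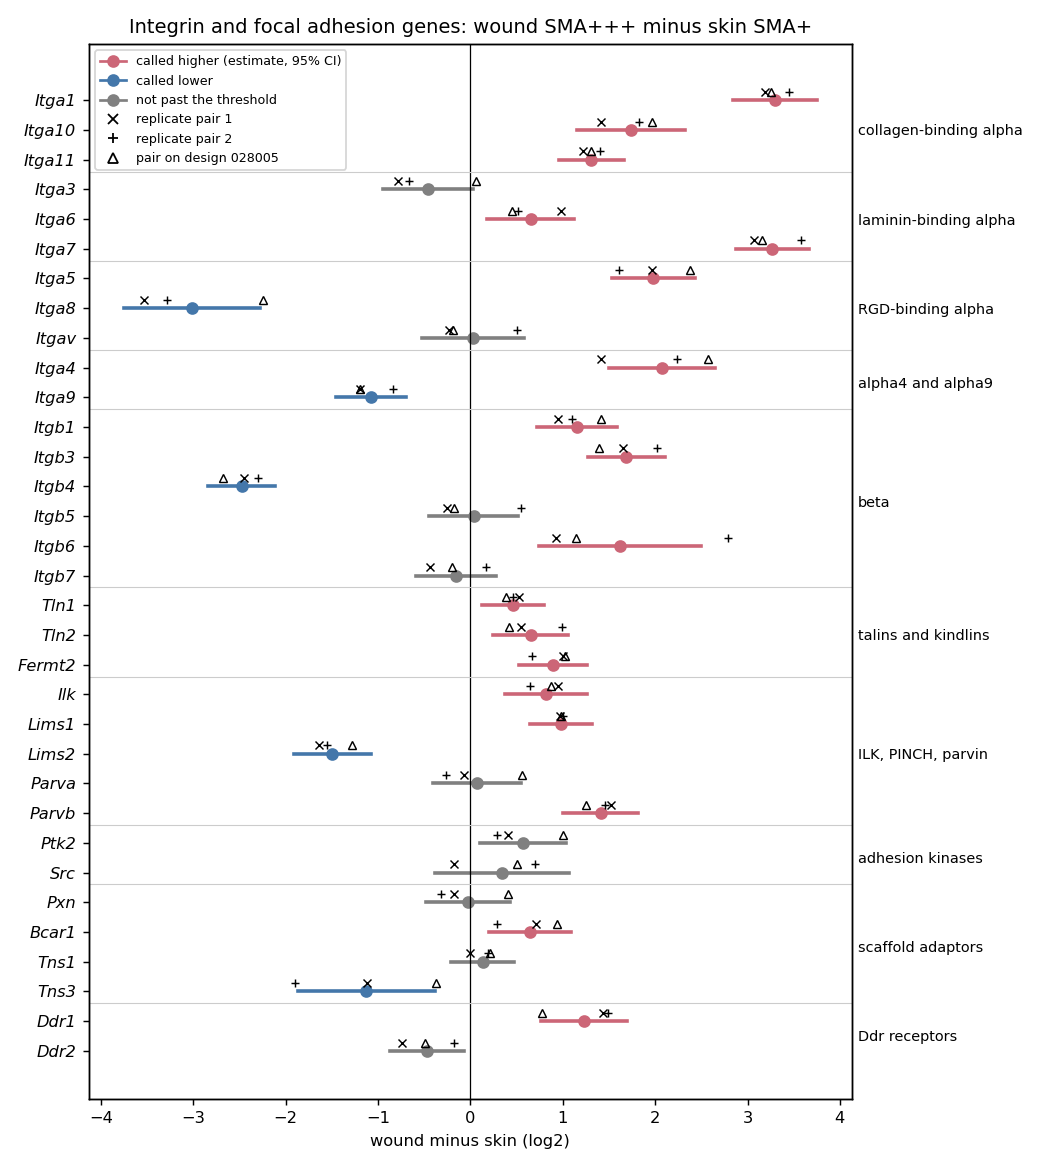
Difference between wound SMA+++ and skin SMA+ (x axis, log2) for the 33 tested genes, grouped by role. Filled circles with bars are limma estimates with 95% confidence intervals, red for genes called higher, blue for genes called lower and grey for the rest, and the small marks are the 3 pairs of arrays. Itga1 and Itga7 lie farthest to the right, at 3.30 and 3.27, and Itga8 and Itgb4 farthest to the left, at -3.02 and -2.48.

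The region just upstream of the gene is shown, so that chains which moved together can be compared, for 3 that were higher in wound cells, the collagen-binding Itga1, the fibronectin-binding Itga5 and their shared partner Itgb1. Each line gives the 250 bases before the most upstream RefSeq start (GRCm38.p6), read on the strand of the gene. Capitals mark matches, on either strand, to 4 searched motifs: the CArG box bound by serum response factor, GGAATG bound by TEAD factors, TGANTCA bound by AP-1, and GGGCGG bound by Sp1, none of which overlaps another here.
Itga1, chr13:115101965-115102214, minus strand: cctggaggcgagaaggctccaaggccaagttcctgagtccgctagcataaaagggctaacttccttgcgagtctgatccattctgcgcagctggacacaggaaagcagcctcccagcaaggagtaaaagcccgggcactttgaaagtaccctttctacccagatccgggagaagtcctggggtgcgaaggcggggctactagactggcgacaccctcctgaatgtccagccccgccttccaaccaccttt
Itga5, chr15:103366792-103367041, minus strand: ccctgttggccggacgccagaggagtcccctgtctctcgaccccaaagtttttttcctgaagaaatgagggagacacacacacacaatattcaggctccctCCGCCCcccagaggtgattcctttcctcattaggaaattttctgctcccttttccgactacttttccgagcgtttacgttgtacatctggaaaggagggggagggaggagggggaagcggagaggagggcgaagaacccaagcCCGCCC
Itgb1, chr8:128685404-128685653, plus strand: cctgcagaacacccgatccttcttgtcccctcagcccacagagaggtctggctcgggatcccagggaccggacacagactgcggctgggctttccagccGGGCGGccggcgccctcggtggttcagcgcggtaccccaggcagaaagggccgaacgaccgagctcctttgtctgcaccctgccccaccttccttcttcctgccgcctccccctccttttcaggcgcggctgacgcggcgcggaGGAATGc
The Itga5 window held GGGCGG, read on the opposite strand, at 149 and 6 bases before the start. The Itgb1 window held GGGCGG at 151 bases and GGAATG at 7 bases before the start. None of the 4 motifs was found in the Itga1 window. Of the 36 genes, 27 had such a window in the table used, and GGGCGG was in 14 of these, against 33.0% of all 27025 windows. GGAATG was in the windows of Itga10 and Itgb1 and in 12.6% of all windows, the CArG box was in that of Fermt2 and in 1.41% of all, and TGANTCA was in none of the 27 and in 6.85% of all. A match describes letters in the window and is not a measured binding site.

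The collagen-binding alpha chains were higher in wound cells for each of the 3 that could be tested, with a median difference of 1.74. Itga1, the alpha chain of a receptor for collagens including the network collagen of basement membranes, had levels of -1.90, -1.66 and -0.80 in skin replicates 1, 2 and 3 and of 1.28, 1.78 and 2.46 in the wound replicates. Every wound array lay above every skin array, and the difference was 3.30 ± 0.19 (9.82-fold, adjusted p = 0.000121). Itga1 has a second probe that was also above background on all 6 arrays, and that probe did not follow the first. Its levels were -0.75, -1.68 and 1.29 in skin and -1.59, -0.93 and 0.08 in wound, with a mean difference of -0.44 and overlapping groups. The probe used for Itga1 was the one with the higher mean over the arrays of each design, and in skin replicates 1 and 3 it was the dimmer of its 2 probes, so it was chosen through its wound levels. With all probes averaged the Itga1 difference was 1.43, still past the threshold. In the authors' deposited table, which also merges probes, it was 1.37, past the threshold too. Both averages include the first probe, so neither is separate support for it, and no setting fitted the second probe alone.

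Itga10, a collagen receptor chain best known from cartilage, rose from -0.62, -0.29 and 0.39 in skin to 0.80, 1.54 and 2.36 in wound. Its difference was 1.74 ± 0.24 (3.33-fold, adjusted p = 0.00255), and its 2 probes gave 1.76 and 1.71. Here the brightest probe was not the same on both designs, and the difference was 1.71 when the same probe was used throughout. Itga11, the fibrillar collagen receptor of fibroblasts, had levels of 3.76, 3.79 and 4.79 in skin and 4.99, 5.19 and 6.09 in wound. Every wound array was above every skin array, and the difference was 1.31 ± 0.14 (2.48-fold, adjusted p = 0.00103). Itga2, the collagen receptor chain of platelets and epithelium, was well above background on 2 of 3 arrays in each group and was not tested. Its pairs of arrays differed by -1.01, 0.83 and -0.87.

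Ddr1 and Ddr2, receptor tyrosine kinases that bind collagen without being integrins, did not move alike. Ddr1, the form best known from epithelium, had levels of -1.04, -1.19 and 0.45 in skin and 0.40, 0.29 and 1.23 in wound. Skin replicate 3 overlapped the wound arrays of the other design, but within each design wound was higher, with a difference of 1.23 ± 0.19 (2.35-fold, adjusted p = 0.00406). Ddr2, the form of mesenchymal cells, was at 4.13, 3.86 and 4.94 in skin and 3.39, 3.69 and 4.44 in wound. Its difference was -0.47 (95% confidence interval -0.87 to -0.07) with an adjusted p of 0.0723. Wound was the lower array in all 3 pairs, and Ddr2 passed as lower under normexp background correction (adjusted p = 0.0320), quantile normalization (0.0311), scaling over probes detected on all arrays (0.0469) and in the authors' deposited table (0.0458).

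**Figure D2:**
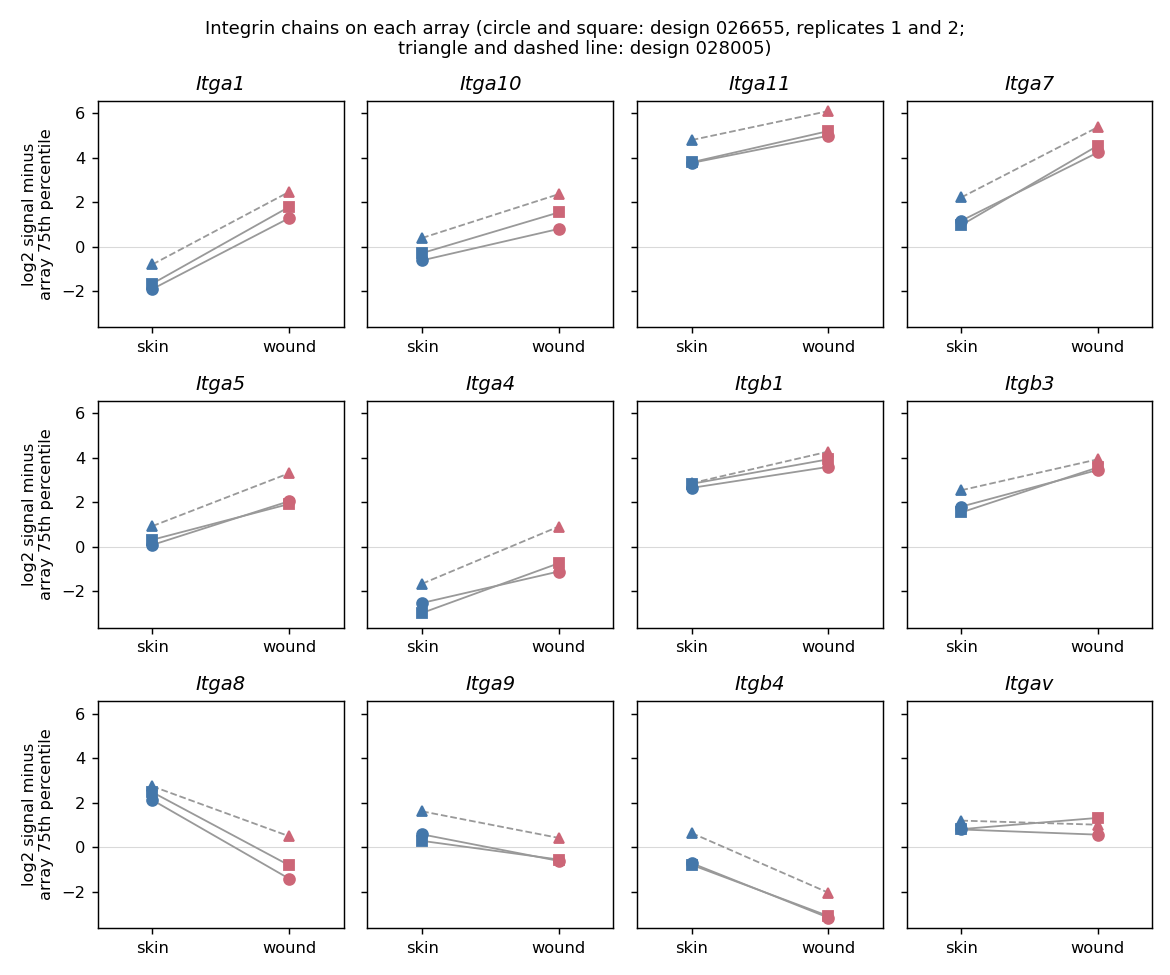
Level of 12 integrin chains on each array (y axis, log2 signal relative to the array's 75th percentile), skin in blue and wound in red. Circles and squares joined by solid lines are replicates 1 and 2 on design 026655, and triangles joined by dashed lines are the pair on design 028005. The lines rise for Itga1, Itga10, Itga11, Itga7, Itga5, Itga4, Itgb1 and Itgb3, fall for Itga8, Itga9 and Itgb4, and run both ways for Itgav.

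The laminin-binding alpha chains differed among themselves. Itga7, the main laminin receptor chain of muscle, had levels of 1.16, 0.97 and 2.21 in skin and 4.24, 4.54 and 5.37 in wound. No wound array came near the skin arrays, and the difference was 3.27 ± 0.16 (9.64-fold, adjusted p = 9.0e-05). Of the 10 mural cell markers tested, 7 rose with it. The signal summed over all 10 was 33.6, 42.5 and 66.9 times the array's 75th percentile in skin and 88.8, 113 and 235 in wound. The mural genes Pdgfrb, Mcam and Cspg4, which are part of that sum, did not pass. The part of mural cells in the rise of Itga7 was not tested.

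Itga6, which pairs with beta4 in the hemidesmosomes of epidermis and with beta1 elsewhere, was at 1.21, 1.76 and 2.90 in skin and 2.19, 2.28 and 3.35 in wound. The groups overlapped across designs, and within designs the difference was 0.65 ± 0.19 (1.57-fold, adjusted p = 0.0443). The call was lost on leaving out any of 5 arrays (adjusted p from 0.0765 to 0.157), and held without skin replicate 2 (0.0485). It was also lost with quantile normalization (0.0939), with scaling over detected probes (0.0813), without the filter on dim probes (0.0976) and in the authors' deposited table (0.0560). Itga3, a laminin receptor chain of keratinocytes, had levels of -4.84, -4.88 and -3.24 in skin and -5.63, -5.54 and -3.17 in wound, where 2 of 3 arrays were above background. Its difference was -0.46 with an adjusted p of 0.131, and -0.72 with an adjusted p of 0.0382 on design 026655 alone.

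The chains that bind RGD proteins went in opposite directions. Itga5, the alpha chain of the classical fibronectin receptor, was at 0.09, 0.32 and 0.93 in skin and 2.05, 1.93 and 3.31 in wound. All wound arrays lay above all skin arrays, and the difference was 1.98 ± 0.19 (3.95-fold, adjusted p = 0.000557). Itga8, the nephronectin receptor chain found on smooth muscle and other mesenchymal cells, moved the other way. It was at 2.11, 2.46 and 2.73 in skin and -1.42, -0.82 and 0.49 in wound, with no overlap, and it fell by 3.02 ± 0.30 (8.10-fold lower, adjusted p = 0.000749). Itgav, the chain that pairs with several beta chains to bind vitronectin and latent TGF-beta, was at 0.79, 0.81 and 1.19 in skin and 0.56, 1.31 and 1.01 in wound. The groups overlapped and the pairs differed in sign, with a difference of 0.03 (95% confidence interval -0.53 to 0.58, adjusted p = 0.933). Its other probe gave -0.03.

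Of the remaining alpha chains, Itga4 was higher and Itga9 lower. Itga4, which binds VCAM1 and a splice form of fibronectin and is best known from white blood cells, had levels of -2.52, -2.97 and -1.66 in skin and -1.11, -0.74 and 0.91 in wound. All wound arrays were above all skin arrays, and the difference was 2.07 ± 0.24 (4.20-fold, adjusted p = 0.00118). The value was 1.32 in the authors' deposited table. Among the 11 leukocyte markers tested, 3 were higher, 2 were lower and 6 did not pass, and the gene of the sorted-out antigen CD45, Ptprc, differed by -0.21 (adjusted p = 0.367). The summed signal of that list was 25.7, 23.5 and 119 in skin and 23.8, 33.1 and 105 in wound. Its genes Itgax and Fermt3, each above background on 1 of 3 skin arrays and so passing the filter only through the wound arrays, differed by 5.62 and 1.74, and Itgal was higher by 0.65. The 2 lower genes of the list were Csf1r, which differed by -0.93, and S100a8, which differed by -1.68. S100a8 was above background on 2 of 3 wound arrays and so passed the filter only through the skin arrays. The part of blood cells in the value of Itga4 was not tested.

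Itga9, a receptor chain for tenascin C and other wound proteins, was at 0.57, 0.28 and 1.61 in skin and -0.62, -0.56 and 0.41 in wound. Wound was lower within each pair, and the gene fell by 1.08 ± 0.16 (2.11-fold lower, adjusted p = 0.00306). The wound array on design 028005 lay between the skin arrays of the other design.

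Among the beta chains, 3 were higher, 1 was lower and 2 did not pass. Itgb1, the partner of most of the alpha chains above, was at 2.65, 2.83 and 2.86 in skin and 3.60, 3.94 and 4.28 in wound. The groups did not overlap, and the difference was 1.15 ± 0.18 (2.23-fold, adjusted p = 0.00400), with 1.04 from a second probe. Itgb3, which pairs with alpha v and with the platelet chain alpha IIb, was at 1.81, 1.55 and 2.55 in skin and 3.46, 3.57 and 3.94 in wound. Again all wound arrays were above all skin arrays, and the difference was 1.69 ± 0.17 (3.22-fold, adjusted p = 0.000785), with 2.07 from a second probe. The platelet markers Gp5, Pf4 and Gp1bb were higher too, 3 of 4 tested, with Gp5 above background on 1 of 3 skin arrays and Pf4 on 2, while the platelet integrin Itga2b differed by 0.37 (adjusted p = 0.271). The summed signal of the platelet list was 0.48, 0.35 and 0.64 in skin and 0.82, 0.77 and 1.20 in wound, and the part of platelets in the value of Itgb3 was not tested.

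Itgb4, the hemidesmosome chain found on keratinocytes and on Schwann cells, was at -0.72, -0.80 and 0.63 in skin and -3.17, -3.10 and -2.05 in wound. No wound array reached the skin arrays, and the gene fell by 2.48 ± 0.15 (5.56-fold lower, adjusted p = 0.000135). Of 11 keratinocyte markers tested, 10 fell with it, and the summed signal of that list was 18.3, 39.9 and 36.6 in skin and 4.42, 6.01 and 10.4 in wound. Of 6 Schwann cell markers tested, 5 fell, with sums of 32.3, 29.1 and 68.7 in skin and 8.83, 8.31 and 20.3 in wound. The keratinocyte genes Krt1 and Cdh1 were well above background on no wound array, Dsp and Epcam on 1, and Krt15 and Col17a1 on 2. Those genes passed the filter only through the skin arrays, as did the Schwann cell gene Cdh19, above background on no wound array. Krt5, Krt10, Krt14 and Sfn were above background on all 6 arrays and fell, Krt5 by 4.33 ± 0.26. The parts of keratinocytes and Schwann cells in the values of Itgb4 and Itga6 were not tested.

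Itgb6, the epithelial partner of alpha v that releases active TGF-beta, was low, at -4.41, -5.20 and -3.88 in skin, where 2 of 3 arrays were above background, and -3.48, -2.41 and -2.73 in wound. Wound was higher in each pair, by 0.93, 2.78 and 1.15, and the difference was 1.62 ± 0.36 (3.07-fold, adjusted p = 0.0163). The size of the difference was 0.59 under normexp background correction, still past the threshold. Itgb5, the vitronectin receptor partner of alpha v, differed by 0.04 (95% confidence interval -0.44 to 0.52, adjusted p = 0.899). Itgb7, a chain of lymphocyte integrins, differed by -0.15 (interval -0.58 to 0.28, adjusted p = 0.543). Itgb8, a further partner of alpha v, was above background on no array and was not tested.

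The proteins that bind the beta tail were higher for each of the 3 that could be tested, by less than 1 log2 unit. Fermt2, the kindlin of mesenchymal cells, was at 1.76, 1.93 and 2.92 in skin and 2.77, 2.60 and 3.94 in wound. Its difference was 0.90 ± 0.15 (1.86-fold, adjusted p = 0.00557), and the increase was seen in each pair. Fermt1, the kindlin of keratinocytes, was above background on no array.

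Tln1, the widely expressed talin, was at 4.58, 4.64 and 5.64 in skin and 5.10, 5.11 and 6.02 in wound. The difference was 0.46 ± 0.14 (1.37-fold, adjusted p = 0.0461) and did not pass on leaving out any of the 6 arrays (adjusted p from 0.0868 to 0.188). It also did not pass with the replicate block (0.0601), quantile normalization (0.121), scaling over detected probes (0.0902), no filter (0.101), the mean of probes (0.147) or the authors' deposited table (0.207). Tln2, the talin best known from muscle and brain, was at -0.58, -0.74 and 0.62 in skin and -0.03, 0.25 and 1.04 in wound, a difference of 0.65 ± 0.17 (1.57-fold, adjusted p = 0.0270). Its call was lost without skin replicate 1, skin replicate 2, wound replicate 1 or wound replicate 2 (adjusted p from 0.0614 to 0.0952), under scaling over detected probes (0.0512) and without the filter (0.0667). Its second probe gave 0.13 and the mean of probes 0.39 (0.0893), and in the authors' deposited table it was 0.33 (0.143).

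In the complex of ILK, PINCH and parvin, 3 of 5 genes were higher, 1 was lower and 1 did not pass. The genes of the PINCH proteins, which join ILK to the membrane complex, moved in opposite directions. Lims1, which encodes the first PINCH, was at 0.73, 0.78 and 2.42 in skin and 1.70, 1.78 and 3.40 in wound, and the 3 pairs differed by 0.97, 1.00 and 0.98. Its difference was 0.98 ± 0.14 (1.98-fold, adjusted p = 0.00265). A second Lims1 probe, also above background on every array, gave a smaller mean difference of 0.76, with pairs of 0.75, 0.51 and 1.03. In skin replicates 1 and 2 the probe used was the dimmer one, at 0.73 and 0.78 against 0.86 and 0.98. On the design of those arrays it was thus chosen through its wound levels. Lims2, which encodes the other PINCH, was at 2.18, 1.87 and 2.99 in skin and 0.54, 0.31 and 1.70 in wound. Wound was lower in each pair, and Lims2 fell by 1.49 ± 0.17 (2.82-fold lower, adjusted p = 0.00125).

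Ilk, the pseudokinase at the centre of the complex, was at 2.74, 2.55 and 4.24 in skin and 3.69, 3.20 and 5.12 in wound. Its difference was 0.82 ± 0.18 (1.77-fold, adjusted p = 0.0165), and the call was lost without skin replicate 2, skin replicate 3, wound replicate 1 or wound replicate 3 (adjusted p from 0.0535 to 0.0622). Parvb, a parvin best known from muscle and heart, was near background, at -5.90, -6.13 and -2.83 in skin, where 1 of 3 arrays was above it, and -4.37, -4.67 and -1.58 in wound. Parvb thus passed the filter only through the wound arrays, and the fitted difference, 1.41 ± 0.17 (2.66-fold, adjusted p = 0.00136), is set largely against background. It was 0.54 under normexp background correction, still past the threshold, and did not pass with all probes averaged (0.60, adjusted p = 0.175) or in the authors' deposited table (0.54, 0.197).

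Parva, the widely expressed parvin, was at 2.11, 2.15 and 2.56 in skin and 2.04, 1.88 and 3.12 in wound, with a difference of 0.07 (interval -0.40 to 0.55, adjusted p = 0.798). Its 3 probes, all above background on all 6 arrays, did not move alike. A second probe gave a mean difference of -0.06, and the third gave 1.61, 1.03 and 1.37 in the 3 pairs. Of the 36 genes, 15 had more than 1 probe above background on all arrays, and the probes differed in sign for 3 of them, Itga1, Itgav and Parva.

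**Figure D3:**
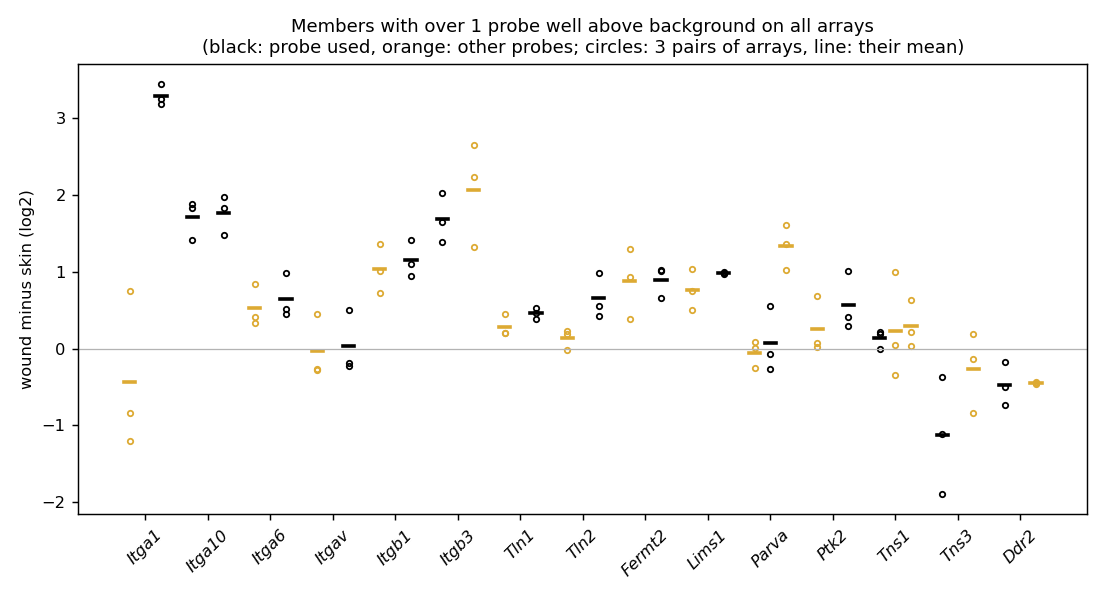
Wound minus skin (y axis, log2) for each probe of the 15 genes with more than 1 probe above background on all arrays, black for a probe used and orange for the other probes. Circles are the 3 pairs of arrays and bars their mean. The Itga1 probes stand at 3.30 and -0.44 and those of Parva between -0.06 and 1.33, while both probes of Itga10 are black because each was the brightest on 1 design.

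Neither kinase of the adhesion complex passed the threshold. Ptk2, which encodes FAK, was at 0.34, 0.55 and 0.97 in skin and 0.74, 0.84 and 1.98 in wound, higher in each pair, with a difference of 0.57 (interval 0.10 to 1.03, adjusted p = 0.0658). Src was at -4.08, -3.84 and -2.93 in skin and -4.26, -3.13 and -2.43 in wound, with pairs of both signs and a difference of 0.34 (interval -0.39 to 1.07, adjusted p = 0.421).

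The scaffold genes gave 1 call in each direction. Bcar1, which encodes p130Cas, a scaffold that stretches under force, was at 1.54, 1.94 and 2.45 in skin and 2.25, 2.23 and 3.38 in wound. Its difference was 0.64 ± 0.18 (1.56-fold, adjusted p = 0.0383), and the call held without skin replicate 2 (0.0263) and was lost on leaving out any of the other 5 arrays (0.0671 to 0.154). It was also lost with quantile normalization (0.0870), scaling over detected probes (0.0688), no filter (0.0875) and in the authors' deposited table (0.0600).

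Tns3, a tensin, which links integrin tails to actin, was at 2.45, 3.19 and 2.92 in skin and 1.33, 1.30 and 2.55 in wound. It fell by 1.13 ± 0.31 (2.18-fold lower, adjusted p = 0.0325), with pairs of -1.11, -1.89 and -0.37. The call was lost without skin replicate 1, skin replicate 2, wound replicate 1 or wound replicate 2 (0.0605 to 0.109) and without the filter (0.0772). A second probe gave -0.26, the mean of probes -0.69 (adjusted p = 0.110) and the authors' deposited table -0.75 (0.0880). Tns1, a related tensin, differed by 0.13 (interval -0.21 to 0.47, adjusted p = 0.511). Pxn, which encodes paxillin, a docking scaffold of focal adhesions, differed by -0.03 (interval -0.48 to 0.42, adjusted p = 0.919).

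The wider set of focal adhesion genes that are not among the 36 had 60 genes tested, of which 23 were higher, 5 lower and 32 did not pass, with a median difference of 0.26. Among those with the largest increases were Tes, a LIM protein of stress fibres, by 5.16 ± 0.21 (adjusted p = 6.69e-05), Fhl2, a LIM protein that also acts in the nucleus, by 3.31 ± 0.17, and Enah, an actin-lengthening protein, by 3.23 ± 0.16. Those with the largest decreases were the tensin Tns2, which fell by 1.24 ± 0.15, the tetraspanin Cd9, which fell by 1.04 ± 0.15, the kinase Fyn, which fell by 0.70 ± 0.17, and the hyaluronan receptor Layn, which fell by 0.66 ± 0.15. The share called in this set was 46.7%, against 34.1% of all genes. Both this share and the count of 23 higher genes include Lpxn, named only for this limit. It was above background on 2 of 3 skin arrays and so passed the filter only through the wound arrays. The count of 5 lower genes was 2 without skin replicate 1, skin replicate 3 or wound replicate 3 and 3 without wound replicate 2.

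The genes of integrin ligands were described by the same classes. Of 47 tested, 32 were higher, 7 lower and 8 did not pass, with a median of 1.00. That is 83% called, against 34.1% of all tested genes, 18.5% as higher and 15.6% as lower, with a median of 0.04. By class, the share called was 66.7% for collagen, 80% for laminin, 100% for RGD and 85.7% for alpha4 and alpha9 ligands. Of 15 collagen genes, 9 were higher, and the chains of collagen V led them, with Col5a3 at 4.03 ± 0.14, Col5a1 at 2.15 ± 0.19 and Col5a2 at 1.80 ± 0.16. Col6a2 followed at 1.14 ± 0.14. Named here after their values were seen, the major fibrillar chains Col1a1, Col1a2 and Col3a1 differed by 0.09, 0.02 and 0.07, with adjusted p-values of 0.675, 0.925 and 0.786. Col13a1, a transmembrane collagen that binds the alpha1 chain, was above background on no wound array and was at least 2.30-fold lower (adjusted p = 0.00770).

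The laminin genes moved both ways. Of 10 tested, 5 were higher, among them Lama5 (1.23 ± 0.17), Lama4 (1.21 ± 0.22) and Lamc1 (0.70 ± 0.15), and 3 were lower. Lamc3 was at 2.51, 2.68 and 3.39 in skin and -2.96, -2.60 and -0.46 in wound, and fell by 4.87 ± 0.33 (29.2-fold lower, adjusted p = 0.00019). Lama2, the alpha chain of the muscle and nerve laminin to which alpha7 binds, fell by 2.37 ± 0.20, while Itga7 was higher. Lamb2 fell by 0.94 ± 0.18.

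The ligands of the RGD class were higher for 14 of 15 genes tested. Of these, Ibsp and Dmp1, the latter named only for this limit, were above background on 1 of 3 skin arrays. They thus passed the filter only through the wound arrays. Vtn, which encodes vitronectin, was at -1.93, -2.15 and 0.20 in skin and 1.54, 1.51 and 3.02 in wound, a difference of 3.32 ± 0.20 (adjusted p = 0.00014). Spp1, which encodes osteopontin, was higher by 2.98 ± 0.27, Edil3, an RGD protein bound by alpha v integrins, by 2.92 ± 0.19, and Ibsp, the bone sialoprotein, by 2.58 ± 0.49 with 1 of 3 skin arrays above background. Ccn1, a matricellular protein, fell by 1.18 ± 0.15. Fn1, which encodes fibronectin and is named after its value was seen, was higher by 1.32 ± 0.24 (adjusted p = 0.00722), alongside Itga5.

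Of the 7 ligands of alpha4 and alpha9, 4 were higher and 2 lower. Tnc, which encodes tenascin C, was at -1.67, -0.35 and 0.17 in skin and 2.79, 3.81 and 4.25 in wound, a difference of 4.24 ± 0.41 (adjusted p = 0.00064) in the direction opposite to its receptor chain Itga9. Emilin1 was higher by 1.10 ± 0.15, Vcam1 by 1.07 ± 0.24 and Madcam1 by 0.90 ± 0.17. Svep1, a large matrix protein bound by alpha9, fell by 1.87 ± 0.19, and Vegfc, a lymphatic growth factor, fell by 1.12 ± 0.17.

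**Figure D4:**
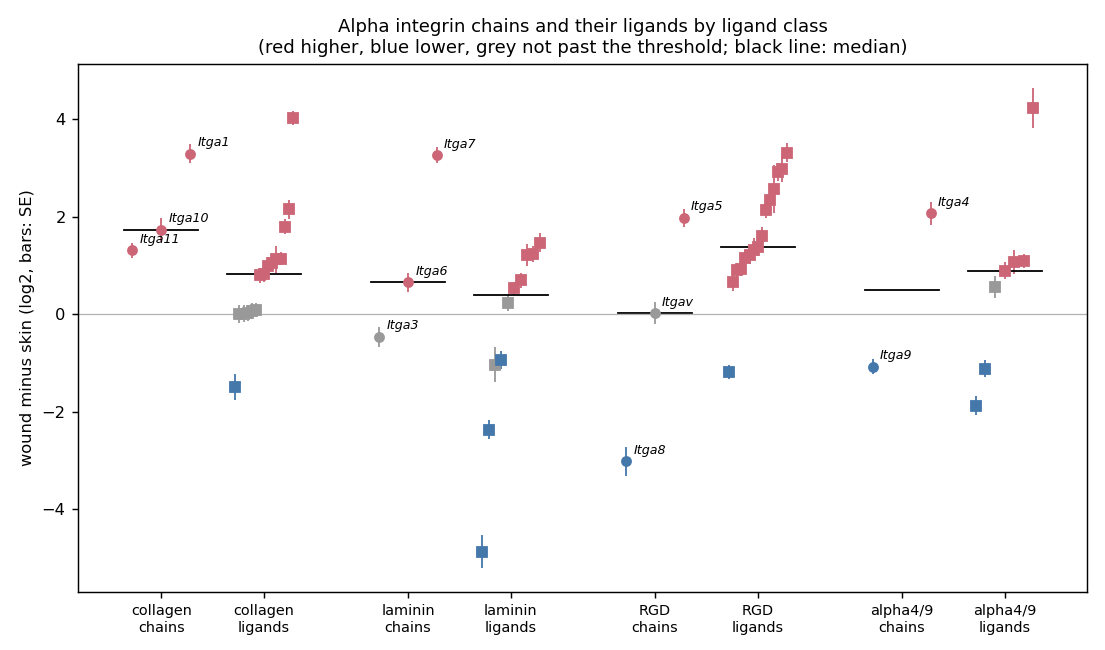
Wound minus skin (y axis, log2, bars SE) for tested alpha chains (circles, named) and for the genes of their ligands (squares), by ligand class. Red marks genes called higher, blue genes called lower, grey the rest, and black lines are medians. All 3 collagen chains and 14 of 15 RGD ligands are red, while laminin chains and laminin ligands spread to both sides of 0.

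The labelled cell type was set against marker lists. All 10 fibroblast markers were above background on all arrays, 1 was higher in wound, 2 were lower and 7 did not pass, and their summed signal was 1240, 1218 and 4192 in skin and 1134, 1283 and 3597 in wound. Of 9 endothelial markers tested, 4 were higher and none lower. Emcn, among the 4, was above background on 1 of 3 skin arrays and passed the filter only through the wound arrays. Pecam1, the gene of the sorted-out CD31, differed by 0.37 (adjusted p = 0.153). The endothelial list's sum was 4.50, 4.27 and 17.9 in skin and 9.06, 8.70 and 22.0 in wound. Of 3 melanocyte markers tested, 1 was lower, with sums of 0.88, 0.40 and 2.37 in skin and 0.24, 0.26 and 0.48 in wound. The share called was 30% of fibroblast, 44.4% of endothelial, 33.3% of melanocyte and 45.5% of leukocyte markers tested, against 34.1% of all tested genes. It was 75% of platelet, 70% of mural, 90.9% of keratinocyte and 83.3% of Schwann cell markers. Most tested mural and platelet markers were higher in wound, as given beside Itga7 and Itgb3. Most tested keratinocyte and Schwann cell markers were lower, as given beside Itgb4. Itga8 fell while 7 of the 10 mural markers rose and Pdgfrb, Mcam and Cspg4 did not pass.

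**Figure D5:**
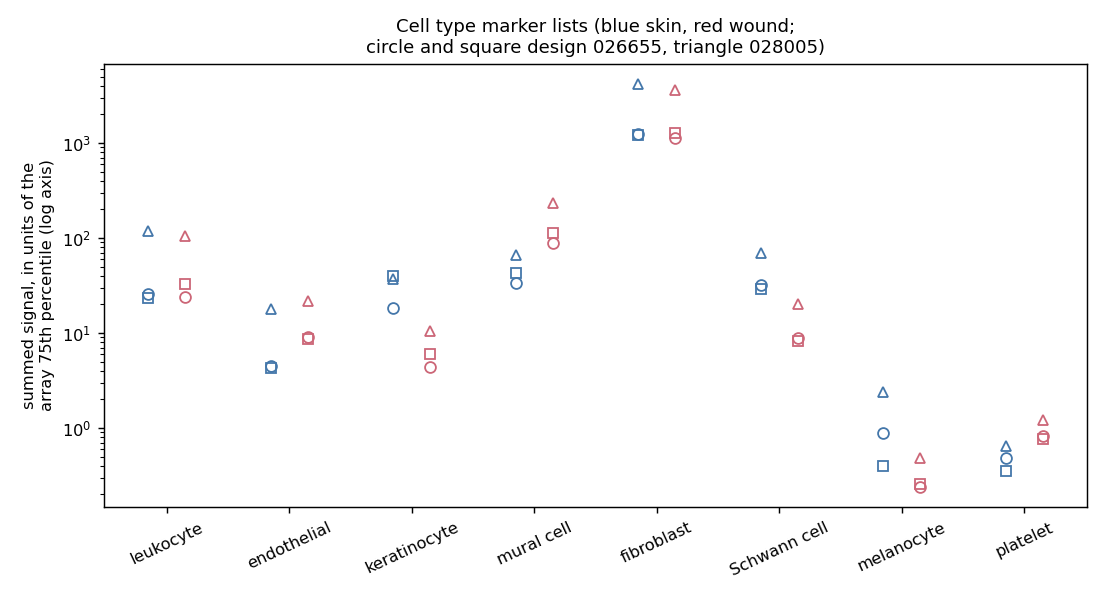
Summed signal of each marker list (y axis, log scale, in units of the array's 75th percentile), skin in blue and wound in red, with circles and squares for replicates 1 and 2 on design 026655 and triangles for design 028005. Keratinocyte and Schwann cell sums are lower on the wound array of each pair, mural sums are higher, and fibroblast sums are the largest on every array.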

How the data were processed

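The 36 genes, the lists and the rule for named genes were chosen with earlier results of these data known. All 36 were named, and of each pathway list up to 4 called higher and 4 called lower with the largest absolute differences, with exceptions marked where they occur. Some genes that this rule would name are not reported here.

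Per the series' design text, the authors amplified about 50 ng of RNA with a low-input kit. Per the file headers, spots were extracted by the authors in Feature Extraction 10.7.3.1 with designs drawn on build mm9. Intensity values in the scanner files, as deposited by the authors, are linear and unscaled between arrays. The authors' deposited table, in which GeneSpring 14.5 joined the designs into gene values per the design text, does not state its scale. Its differences between paired arrays matched log2 differences of the mean of a gene's probes, with slopes of 1.00, 1.00 and 0.975 and correlations of 0.99999, 0.99997 and 0.9753 over 16545 genes, so the authors' deposited values were read as log2 in the same direction. Each column's 75th percentile was 0 to within rounding, and the medians were -0.21, -0.25 and -0.25 for skin and -0.28, -0.27 and -0.23 for wound, while the rule for its centring across arrays stays unknown. That table and the mean of all probes are thus not independent alternatives.

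Control and outlier spots were left out and the spots of a probe were averaged. The scanner files carry no gene names, so probes were named through the authors' table (27773 probes on each design), otherwise through the RefSeq accession in a GRCm38.p6 gene table (4179 of 39429 probes on design 026655 and 4205 of 55680 on 028005), and the rest stayed unnamed. The value tested was the log2 processed signal, less its 75th percentile on that array, of the brightest probe of a gene on each design, which was the same probe for 97.8% of genes. Limma 3.58.1 in R 4.3.3 (lmFit, eBayes) compared the groups in a model that had a term for array design, which also covers slide and scan, with 3 residual degrees of freedom and 6.25 after moderation. The number of arrays limits the precision. Where no array of a group measured a gene above background, a bound stands in place of a fold, set against the higher of its own signal and the lowest signal above background. The fit was tested on simulated data. The planned normexp alternative used the median spot signal, because the files given here hold no mean signal column, and subtracts the local background with an offset of 50.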

Additional observations from a re-analysis of the deposited data

How the results depend on the processing

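No difference of a called gene among the 36 changed sign under any of the 17 settings that could test it. Itga3, Itgb6 and Parvb were left out where all 6 arrays had to be above background. Without the term for the array design, 5 of the 36 genes were called higher and 2 lower by limma, against 18 and 5 with it. Under that setting the other focal adhesion genes gave 9 higher and 0 lower (1 lower at an unadjusted p under 0.05) against 23 and 5, and the ligand genes gave 10 higher and 3 lower against 32 and 7. Of all genes, 1765 were called without the term and 5702 with it. The 5 lower focal adhesion genes became 2 without the filter on dim probes and 2 on design 026655 alone. Leaving out 1 array at a time gave 13 to 15 higher and 4 to 6 lower among the 36, 17 to 20 higher and 2 to 4 lower among the other focal adhesion genes, and 27 to 30 higher and 7 to 8 lower among the ligands. Leaving out either array of design 028005 equals using design 026655 alone, because the lone array is absorbed by the design term. Of the 36 genes, 13 were called higher and 5 lower with the authors' deposited table, and 15 and 6 with quantile normalization. The labels number 2 of the 3 pairs and do not say what the numbers mark. Deviations of same-numbered arrays from their group means correlated at 0.336 and 0.187 over 16661 genes, and at 0.153 within design 026655. The pair on design 028005, which bears no number, gave 0.367. Both arrays of each pair share a design, so the values of 0.336, 0.187 and 0.367 cannot tell pairing by number from array design. A replicate block gave 17 higher and 5 lower. Signal over background limits the values of Itgb6 and Parvb, and probes of opposite sign limit those of Itga1 and Parva.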
